A study of Bos taurus with 8 samples.

Results

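CD69 (ENSBTAG00000002135) was described here across the times of LPS treatment and across classes of peripheral blood mononuclear cells (PBMCs) of Holstein cattle. It is 1 gene of the 21861 in the scRNA-seq tables and 1 of the 14165 listed in at least 1 of the scATAC-seq tables. It was selected on its ratio of scRNA-seq UMIs at 2 h to no LPS, among the largest of all genes, so these ratios are a description and carry no test. Whole blood of 4 lactating female Holstein cattle aged 2 years was pooled and then divided into 4 parts. PBMCs were isolated from a part left without LPS and from parts kept with LPS (2 µg/ml) during 2 h, 4 h and 8 h. Every part was profiled by both assays in a single library each, so no difference between times has a replicate check. The intervals printed (95%, exact) cover counting error only. They take each count as independent, and where a few cells hold many of the counts they are too narrow. How long the part without LPS was incubated is not given in the sources used here, so LPS and time in incubation cannot be told apart in any ratio to no LPS.

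CD69 is a C-type lectin-like membrane protein that lymphocytes display soon after activation, which made it a standard early activation marker in flow cytometry. Its gene lies in the NK gene complex among other lectin-like receptors, and its transcription is known to respond to AP-1, EGR and NF-kB factors. At the membrane CD69 binds the sphingosine 1-phosphate receptor S1PR1 and draws it into the cell, which holds activated lymphocytes in tissue. Granulocytes and monocytes can also carry CD69. LPS is a wall component of Gram-negative bacteria that is sensed through TLR4 and CD14, and most lymphocytes respond to it mainly through cytokines of other cells.

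Cells with 200 to 3000 genes, at least 200 UMIs (unique molecular identifiers, 1 for each captured RNA molecule) and under 20% mitochondrial UMIs were kept, in all 7821, 9865, 7387 and 3411. Where 4 values stand in a row they are always given in the order no LPS, 2 h, 4 h, 8 h. A cell was put in a class when it had a UMI of 1 of 6 gate markers and of none of the other 5: CD4 (helper T cells), CD8B (cytotoxic T cells), WC1 (γδ T cells of cattle, 3 gene rows), MS4A1 (B cells, CD20), NCR1 (NK cells) and CD14 (monocytes). Between 54.5% and 59.2% of the cells of a library were gated in this way. The gates were checked against other markers. CD3E, a subunit of the T cell receptor complex, was found in 90.7% to 93.0% of CD4-gated, 91.1% to 93.8% of CD8B-gated and 94.2% to 97.2% of WC1-gated cells. The perforin gene PRF1 was found in 73.9% to 76.2% of NCR1-gated cells, and CD79A, a subunit of the B cell receptor, in 42.0% to 64.7% of MS4A1-gated cells. The CD14 gate was less pure. CSF1R, the receptor for the monocyte growth factor, was found in 14.3% to 48.3% of its cells and CD3E in 14.8% to 31.6%, and CD79A was found in 8.46% to 19.5% of the CD8B- and WC1-gated cells of each library. Doublets were not removed, and 93 of 30663 distinct barcodes (0.303%) occurred in more than 1 library.

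Over all cells the CD69 level, in UMIs scaled to a total of 1000000 (CPM), was 23.9 CPM without LPS (95% interval 22.4 to 25.5), 190.1 CPM after 2 h (186.2 to 194.0), 107.4 CPM after 4 h (104.3 to 110.7) and 64.2 CPM after 8 h (60.4 to 68.1). These levels rested on 921, 9100, 4315 and 1069 CD69 UMIs. The level was thus highest at 2 h and lower at each later time, without returning to that of the library without LPS. The ratio to no LPS was 7.95-fold (7.42 to 8.51), then 4.49-fold (4.18 to 4.83) and 2.68-fold (2.45 to 2.93), the 3rd, 27th and 10th highest of 12150, 12060 and 11778 genes with at least 20 UMIs in the compared libraries. The share of cells with a CD69 UMI was likewise highest at 2 h, with 7.31%, 19.8%, 18.2% and 13.3%. In sums over cells, fewer cells of a type and less RNA per cell cannot be told apart.

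In each of the 6 gates the level at 2 h was above that without LPS by more than the counting error, and the gates differed in what followed. CD4-gated cells had 21.8, 60.5, 51.4 and 34.2 CPM. MS4A1-gated cells had 14.4, 91.2, 48.1 and 27.3 CPM. Both thus peaked at 2 h and declined, and the ratio at 2 h was 2.78-fold (2.26 to 3.45) in CD4-gated and 6.32-fold (5.25 to 7.67) in MS4A1-gated cells. CD8B-gated cells had 26.9, 71.9, 45.5 and 46.2 CPM, with no difference between 4 h and 8 h beyond counting error (1.02-fold, 0.731 to 1.40).

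The γδ T and NK cell gates had other courses. WC1-gated cells held only 4 CD69 UMIs in 252 cells without LPS (3.96 CPM, 1.08 to 10.1), and 40.9, 42.2 and 50.9 CPM in the treated parts. Their ratio at 2 h was 10.3-fold with an interval of 3.76 to 39.6, so its size is poorly known. NCR1-gated cells, 42 to 115 in a library, had 22.7, 82.2, 39.8 and 82.5 CPM. In these NK-gated cells the level at 4 h was lower than at 2 h (0.484-fold, 0.292 to 0.790) and that at 8 h higher than at 4 h (2.07-fold, 1.15 to 3.71), the latter on 24 UMIs of which 12 were in 1 cell.

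The CD14-gated cells stood apart. Their CD69 level was 11.2, 507, 410.0 and 124 CPM, a ratio of 45.2-fold (36.4 to 56.7) at 2 h. The CD14 gate also changed in size and depth. It held 910, 438, 180 and 231 cells, 11.6%, 4.44%, 2.44% and 6.77% of the cells kept, and the median UMI count of a CD14-gated cell was 7418, 9560, 5224 and 1618. The part of this change in the CD69 level was not tested. The cells with none of the 6 markers had 48.7, 291, 147 and 112 CPM, and held 51.7%, 47.2%, 45.8% and 48.9% of all CD69 UMIs.

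**Figure D1:**
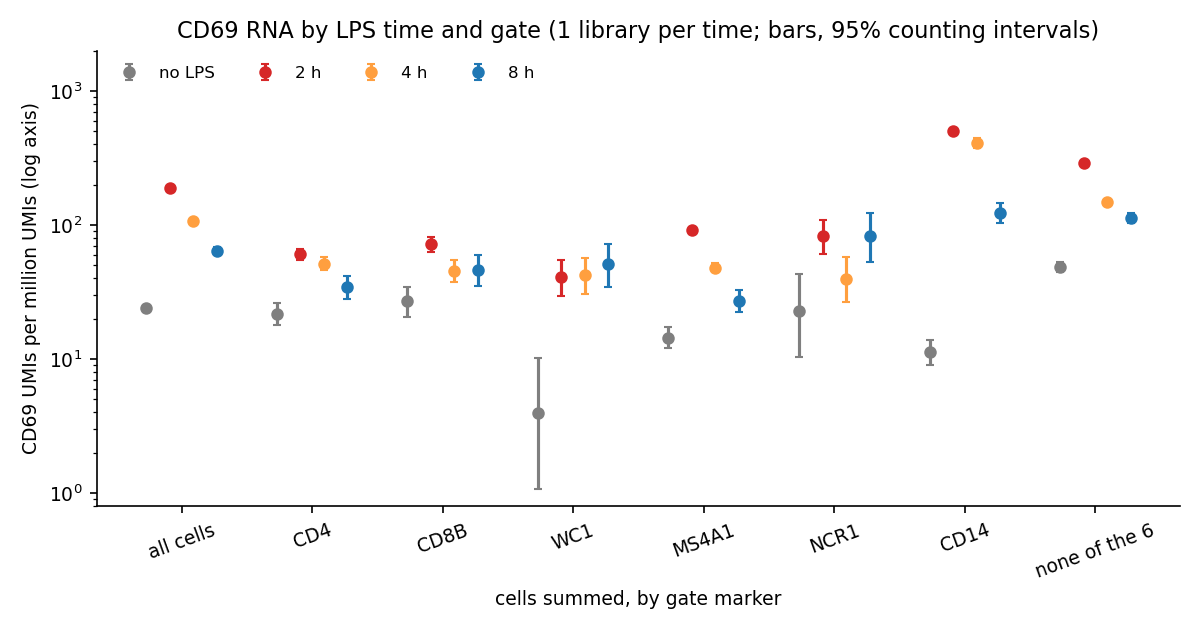
CD69 UMIs in CPM (log axis) in all cells, in each of the 6 gated classes and in cells with none of the 6 markers, with 1 point for each library and bars for the 95% counting interval. The CD14 gate goes from 11.2 CPM without LPS to 507 CPM at 2 h, while the 5 lymphocyte gates reach 40.9 to 91.2 CPM at 2 h.

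The order of the gates therefore changed with LPS. Without LPS it was CD8B, NCR1, CD4, MS4A1, CD14 and WC1, and among neighbours in this order only CD4 over MS4A1 (1.51-fold, 1.16 to 1.96) and CD14 over WC1 (2.83-fold, 1.07 to 10.6) differed beyond counting error. At 2 h CD14 was first, 5.56-fold (5.18 to 5.97) above MS4A1, and neither MS4A1 over NCR1 nor NCR1 over CD8B differed beyond counting error. CD8B was 1.19-fold above CD4 (1.01 to 1.40) and CD4 1.48-fold above WC1 (1.08 to 2.06). At 4 h the 5 lymphocyte gates lay between 39.8 and 51.4 CPM, and no neighbours among them differed beyond counting error. At 8 h no neighbours differed beyond it, with CD14 at 124 CPM, NCR1 at 82.5 CPM and MS4A1 lowest at 27.3 CPM. These orders depend on a few cells with UMIs of granulocyte growth factor or chemokine receptors, described below. In the CD8B gate at 2 h, 5 of 615 cells held 65 of 222 CD69 UMIs. The intervals take each UMI as independent and are thus too narrow, so those close to 1 do not settle an order.

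The share of positive cells was also higher after LPS in every gate. In the CD4 gate 8.23%, 17.4%, 17.4% and 14.0% of cells had a CD69 UMI, and in the MS4A1 gate 4.55%, 15.3%, 12.5% and 7.33%. The CD8B gate had 10.7%, 19.3%, 16.9% and 18.3%, the WC1 gate 1.19%, 12.9%, 14.2% and 8.85%, and the NCR1 gate 12.0%, 24.8%, 20.0% and 23.8%. The CD14 gate had 4.62%, 34.0%, 40.0% and 13.4%. The 95% intervals overlapped those without LPS in the NCR1 gate at each LPS time. They also did in the CD8B gate at 4 h and 8 h and in the MS4A1 gate at 8 h. Positive lymphocytes mostly held few CD69 UMIs. At 2 h a positive cell had on average 1.64 CD69 UMIs in the CD4 gate, 1.87 in the CD8B gate, 1.38 in the WC1 gate and 1.74 in the NCR1 gate, against 3.12 in the MS4A1 gate and 14.4 in the CD14 gate. After each cell was thinned to 1000 UMIs to take out differences in depth, the shares were 2.52%, 5.04%, 4.82% and 3.07% in CD4-gated cells, 1.43%, 5.98%, 4.16% and 1.87% in MS4A1-gated cells and 1.89%, 27.3%, 28.7% and 8.15% in CD14-gated cells. In CD8B-gated cells they were 2.68%, 6.29%, 2.34% and 6.02%, so the higher share at 4 h was not found at equal depth in that gate. WC1-gated cells had 0.803%, 4.45%, 4.23% and 3.54%, and NCR1-gated cells 2.67%, 8.26%, 4.35% and 7.14%. In the CD8B, WC1 and NCR1 gates the 95% intervals of these thinned shares overlapped those without LPS at each LPS time. In the CD4 gate they overlapped at 8 h. The intervals of the MS4A1 gate at 8 h (0.998% to 3.17%) and without LPS (0.928% to 2.10%) overlapped as well. Cells under 1000 UMIs were left out for this, 20, 20, 14 and 10 in the CD4 gate, 12, 11, 9 and 8 in the CD8B gate, 56, 29, 26 and 54 in the MS4A1 gate and 64, 28, 16 and 47 in the CD14 gate. In the WC1 gate they were 3, 1, 1 and 0, and in the NCR1 gate there were none.

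A small part of the cells held most CD69 UMIs in every library. The cells with the most CD69 UMIs that together held 50% of them were 1.69%, 1.93%, 1.67% and 1.61% of all cells, a like share in each library. Of the cells with a CD69 UMI they were 132 of 572 without LPS, 190 of 1950 at 2 h, 123 of 1347 at 4 h and 55 of 453 at 8 h. Among positive cells the CD69 UMIs were thus held by a smaller part after LPS. Without LPS 420 of the 572 positive cells had exactly 1 CD69 UMI, the least a positive cell can have. This part therefore also depends on the level. Cells with many CD69 UMIs were found mainly after LPS, where the level was also higher. Without LPS 3 of 7821 cells had 10 or more CD69 UMIs. At 2 h 293 cells (2.97%) did, and they held 5720 of the 9100 CD69 UMIs (62.9%). At 4 h 98 cells held 45.2% of the CD69 UMIs, and at 8 h 18 cells held 29.0%. The highest count in a cell was 21, 73, 82 and 32. Cells with exactly 1 CD69 UMI made up 5.37%, 10.4%, 10.7% and 8.97% of the cells.

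**Figure D2:**
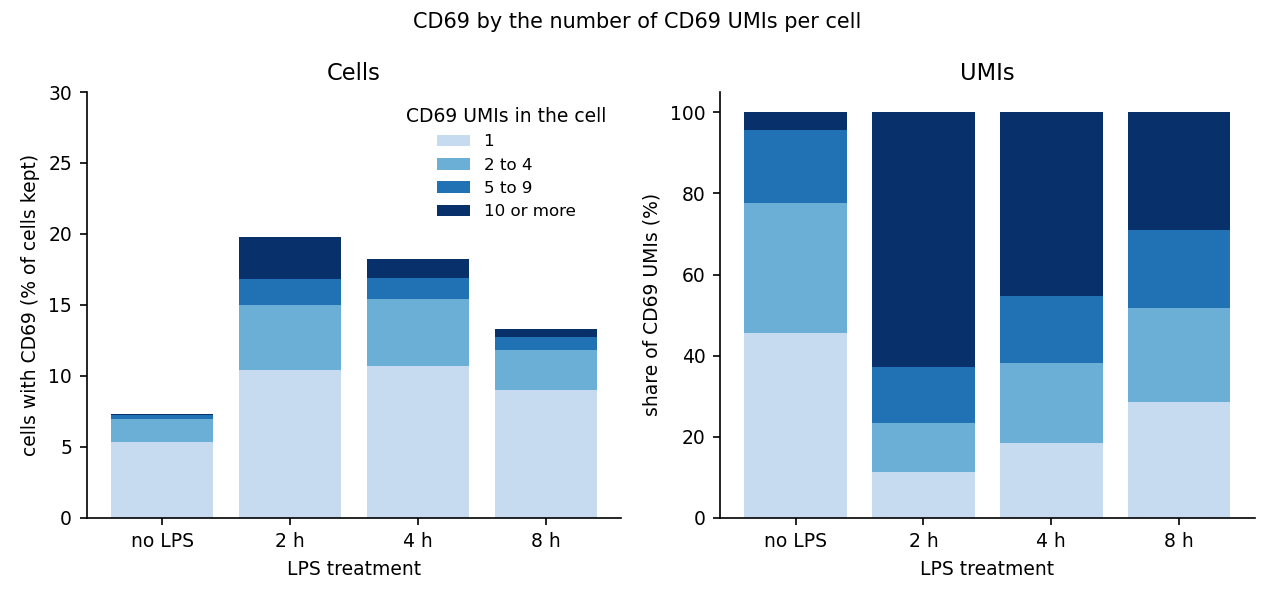
Left, the percentage of kept cells with 1, 2 to 4, 5 to 9 and 10 or more CD69 UMIs in each library; right, the percentage of all CD69 UMIs that these cells held. At 2 h the cells with 10 or more CD69 UMIs are 2.97% of the cells and hold 62.9% of the UMIs.

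The cells with 10 or more CD69 UMIs at 2 h were not typical of any lymphocyte gate. Of the 293, 157 had none of the 6 gate markers, 73 were CD14-gated, 30 MS4A1-gated, 25 had several markers and 8 were in the CD4, CD8B or NCR1 gate. In 98.3% of them IL1RN, the natural antagonist of the IL-1 receptor, was detected, against 14.3% of the other cells, and its level was 15733 CPM against 680 CPM. The neutrophil-attracting chemokine CXCL8 stood at 51310 CPM against 2831 CPM, GPR84, a receptor of myeloid cells for medium-chain fatty acids, at 3829 CPM against 100.2 CPM, and MEFV, the pyrin inflammasome gene, at 2014 CPM against 59.3 CPM. CD3E was found in 10.6% of them and in 56.5% of the other cells. Their median UMI count was 2026, against 4076 over all cells. These genes were picked after their values were seen.

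A UMI of CSF3R, CXCR1 or CXCR2, which encode the receptors for the granulocyte growth factor G-CSF and for CXCL8, was found in 68.9% of these 293 cells and in 1.89% of the others. Cells with such a UMI are called receptor-positive below. They numbered 199, 383, 300 and 102, and this grouping was chosen after the data were seen. Their CD69 level was 272, 3144, 1644 and 1101 CPM, and 42.7%, 93.2%, 83.7% and 63.7% of them had a CD69 UMI. They made up 2.54% to 4.06% of the cells and held 28.0%, 56.1%, 55.0% and 40.1% of all CD69 UMIs. Those with none of the 6 gate markers had 1306 CPM already without LPS, where 57 of 91 cells (62.6%) were positive, and 6289 CPM at 2 h. Of the 10 granulocyte markers listed, 9 were in the table and 4 to 7 had a UMI in the receptor-positive cells, with a summed level of 347 to 475 CPM, most of it from CSF3R (258 to 379 CPM). The 12 monocyte markers summed to 5325 to 19773 CPM in the same cells, with S100A9 highest in each library. CSF1R, another marker of that list, was found in 18.6%, 5.22%, 4.33% and 4.90% of them. In the CD14 gate it was found in 48.35%, 31.3%, 24.4% and 14.3%, so the sum does not stand for each marker. Since 1 of the receptors was itself the leading granulocyte marker, no cell type was given to these cells.

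CD69 was also higher at 2 h in the cells without a receptor UMI. Their level over all such cells was 17.7, 86.4, 50.2 and 39.3 CPM, which gives ratios to no LPS of 4.89-fold (4.51 to 5.32), 2.84-fold (2.60 to 3.11) and 2.23-fold (2.00 to 2.49). Absence of a receptor UMI does not show that a cell lacks the receptors. Of the 293 cells with 10 or more CD69 UMIs at 2 h, 91 had no receptor UMI. Of these, 54 had no gate marker, 15 were in the CD14 gate and 10 in the MS4A1 gate. The receptor-negative values thus still include cells with many CD69 UMIs. In the CD4 gate leaving out the receptor-positive cells moved the level at 2 h only from 60.5 to 58.8 CPM, and the ratio was 2.77-fold. In the MS4A1 gate 39 receptor-positive cells of 2588 held 522 of 1240 CD69 UMIs at 2 h, and without them the level was 54.0 CPM and the ratio 4.55-fold (3.69 to 5.67). In the CD8B gate the ratio at 2 h was 1.90-fold (1.40 to 2.61) without 5 such cells. In the WC1 gate it was 8.26-fold (2.95 to 32.0) at 2 h. At 8 h the WC1 level was 15.1 CPM in place of 50.9 CPM without 2 such cells, 1 of which had 21 CD69 UMIs, so the high WC1 level at 8 h rests on it. No receptor-positive cell was in the NCR1 gate without LPS or at 2 h. The order of the gates at 2 h was another one without these cells, with CD14 at 104.9, NCR1 at 82.2, CD4 at 58.8, MS4A1 at 54.0, CD8B at 51.2 and WC1 at 32.7 CPM. CD8B thus lay below CD4 in place of above it, and among neighbours only NCR1 over CD4 (1.40-fold, 1.01 to 1.89) and CD8B over WC1 (1.57-fold, 1.08 to 2.33) differed beyond counting error. At 8 h CD14, first with these cells, lay at 19.3 CPM without them, below NCR1, CD8B and CD4.

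The CD14 gate was split by the same UMIs. Its 74, 104, 71 and 24 receptor-positive cells had 101.1, 3019, 1222 and 1133 CPM of CD69. Its other cells had 4.36, 104.9, 80.0 and 19.3 CPM. Those of them with a CSF1R UMI, which are the CD14-gated cells with a second monocyte marker, had low levels, with 2.43, 12.0, 22.5 and 4.67 CPM on 12, 22, 12 and 2 CD69 UMIs. At 2 h 4 of 122 such cells (3.28%) had a CD69 UMI, at a median of 15266 UMIs per cell, and at 4 h 1 cell of 35 held all 12. The level of the CD14 gate at 2 h thus came mainly from cells with receptor UMIs, which held 1769 of its 2153 CD69 UMIs.

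**Figure D3:**
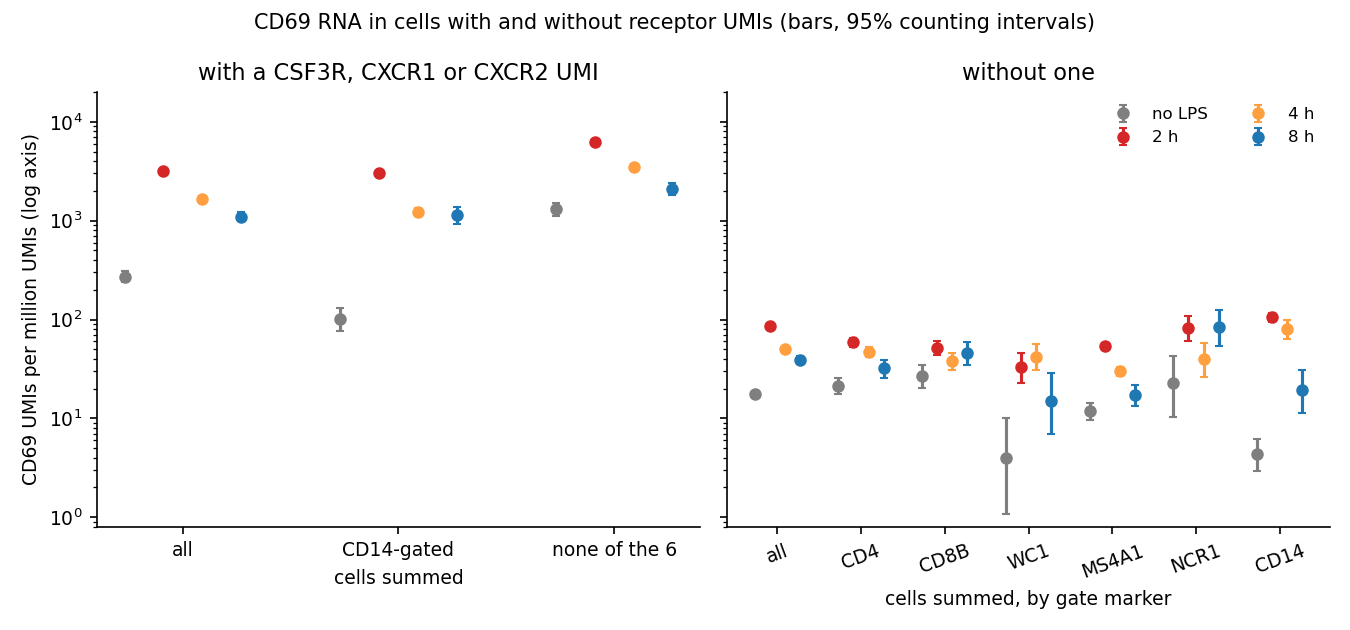
CD69 UMIs in CPM (log axis) in cells with a CSF3R, CXCR1 or CXCR2 UMI (left; all such cells, those in the CD14 gate and those with none of the 6 gate markers) and without one (right; all such cells and each gate), with bars for the 95% counting interval. At 2 h the level is 3144 CPM in all cells with a receptor UMI and 86.4 CPM in all cells without one.

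RNA that leaks into droplets from other cells can give a CD69 UMI to a cell that does not express it. The CD14-gated cells with CSF1R and without receptor UMIs give a low share, 1.96% without LPS and 3.28% at 2 h, at a median depth above that of every gate, and the 1.19% of WC1-gated cells without LPS was lower. Genes of other lineages gave shares of 0.604% to 1.68% (CD79A in CD4-gated cells) and 7.22% to 14.1% (CD3E in MS4A1-gated cells). If leaked RNA came from the receptor-positive cells, CD69 would come with IL1RN at their ratio, which was 4.32 IL1RN UMIs for each CD69 UMI at 2 h. The 347 IL1RN UMIs of CD4-gated, receptor-negative cells would then bring 80.3 of their 411 CD69 UMIs (19.5%), and the 10 of NCR1-gated cells 2.31 of 47 (4.92%). In MS4A1-gated, receptor-negative cells the same count gave 311 of 718 (43.4%), and with CXCL8 in place of IL1RN 287 (39.9%). In CD8B- and WC1-gated, receptor-negative cells it gave 17.2% and 17.9%. In CD14-gated, receptor-negative cells, with many IL1RN UMIs of their own, it gave 3888 against 384 CD69 UMIs counted, so the ratio says nothing there. In the whole MS4A1 gate, receptor-positive cells included, it gave 61.8% with IL1RN and 58.4% with CXCL8. These counts assume that 1 ratio holds for all such RNA. At 2 h receptor-negative cells held 28737 of the 50788 IL1RN UMIs of all cells. Those in the CD14 gate with CSF1R had 356 IL1RN UMIs for each CD69 UMI. IL1RN leaked from such cells would bring less CD69, so the counts are high values. The part of leaked RNA in the CD69 levels was not tested.

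Relative to the other genes of the same gate, CD69 ranked 33rd of 9313 genes in the CD4 gate at 2 h, 45th of 8072 in the CD8B gate, 11th of 6327 in the WC1 gate, 22nd of 10058 in the MS4A1 gate, 27th of 4352 in the NCR1 gate and 2nd of 8468 in the CD14 gate, by its log2 ratio to no LPS. The median log2 ratio of all genes was near 0 in the lymphocyte gates (-0.12 to 0.03) and -0.46 in the CD14 gate. At 8 h the rank was 406th in the CD4 gate and 262nd in the MS4A1 gate, but 16th in the NCR1 gate.

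The factors known to act on CD69 were compared next, over all cells and with the same scaling. Members of each list are counted as higher or lower at a 2-fold ratio. Of 12150 genes, 0.938% were at least 2-fold higher and 2.46% at least 2-fold lower at 2 h. At 4 h these shares were 1.28% and 4.26%, and at 8 h 0.492% and 2.92%. Of 18 measured genes of the AP-1, EGR and NR4A families and related immediate early genes, 1 was higher at 2 h and none at 4 h or 8 h, where 1 and none were lower (median log2 ratio 0.23, -0.07 and -0.07). ATF3, a stress-induced AP-1 family factor, was at 45.2 CPM without LPS and 104.1 CPM at 2 h. NR4A1, an orphan nuclear receptor induced by antigen receptor signals, was at 10.3 and 16.6 CPM, and JUNB, an AP-1 subunit, at 348 and 534 CPM. The AP-1 subunit FOS (25.5, 14.8, 12.5 and 20.8 CPM) and EGR1, a zinc finger immediate early factor (48.8, 25.3, 20.3 and 28.8 CPM), had their highest levels without LPS. The gates differed in this. In the CD14 gate FOS was at 55.1 CPM without LPS and 17.4 CPM at 2 h, in the CD4 gate at 8.14 and 7.56 CPM and in the MS4A1 gate at 9.51 and 8.38 CPM. It was at 4.57 and 6.48 CPM in the CD8B gate, 19.8 and 27.0 CPM in the WC1 gate and 20.1 and 36.7 CPM in the NCR1 gate, on 8 to 29 UMIs a library, so in these gates its value at 2 h was the higher one.

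Of the 20 NF-kB subunits and targets 10 were higher at 2 h, 2 at 4 h and none at 8 h (median log2 ratio 1.01, 0.59 and 0.21). SOD2 alone was lower, at the latter 2 times. CD83, a membrane protein of activated B and dendritic cells, was at 99.5, 445, 291 and 165 CPM. The adaptor gene TRAF1 was at 30.6, 94.9, 55.9 and 39.4 CPM, and TNFAIP3, which encodes the NF-kB inhibitor A20, at 99.1, 283, 150.0 and 114 CPM. All 3 thus shared with CD69 a peak at 2 h and a decline after it. TNIP1, a partner of A20, stayed near its level without LPS at 2 h (192 and 203 CPM), and SOD2, the mitochondrial superoxide dismutase, was at 1779, 1418, 834 and 803 CPM. Within gates, TNFAIP3 went from 37.5 CPM without LPS to 92.8 CPM at 2 h in CD4-gated cells, from 24.1 to 145 CPM in MS4A1-gated cells and from 267 to 567 CPM in NCR1-gated cells. NFKBIA, which encodes the inhibitor IκBα, went from 311 to 869 CPM, from 317 to 997 CPM and from 159 to 486 CPM in the same gates.

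Of 23 lymphocyte activation genes 5 were higher at 2 h, 3 at 4 h and at 8 h 1, and none was lower. SLAMF1, a receptor that lymphocytes and myeloid cells share, was at 7.12, 47.9, 15.0 and 10.8 CPM. The costimulatory receptors TNFRSF4 (OX40) and TNFRSF18 (GITR) kept their level longer, with 17.1, 66.5, 73.4 and 37.1 CPM for TNFRSF4 and 47.3, 173, 154 and 87.4 CPM for TNFRSF18. The α chain of the IL-2 receptor, IL2RA, a later activation marker than CD69, was at 51.0, 117.7, 142 and 96.0 CPM and was thus highest at 4 h. CD27, which marks T cells and memory B cells, and LAG3, an inhibitory receptor, had log2 ratios of -0.26 and -0.34 at 2 h. Among the gates SLAMF1 was highest with CD14 at 2 h, where it went from 3.13 to 265 CPM. It went from 7.51 to 33.5 CPM in the MS4A1 gate and was at 9.27 and 9.56 CPM in the CD4 gate.

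S1PR1, which CD69 protein binds, did not follow CD69 at the RNA level over all cells, and the gates differed. Over all cells it was at 35.4, 32.6, 33.6 and 39.5 CPM. In the CD4 gate it was at 52.8, 55.5, 60.4 and 58.7 CPM, and in the MS4A1 gate at 20.5, 10.4, 9.76 and 12.7 CPM. In the NCR1 gate it was at 30.2, 19.2, 27.0 and 37.8 CPM, on 11 to 19 UMIs a library. The CD8B gate had 42.0, 58.3, 55.8 and 58.8 CPM. The WC1 gate had 65.3, 42.8, 34.35 and 52.5 CPM, on 66, 46, 35 and 32 UMIs. The CD14 gate had 8.48, 4.47, 3.47 and 27.25 CPM, on 65, 19, 5 and 28 UMIs. KLF2, the factor that drives S1PR1 transcription, was at 12.1, 9.11, 8.22 and 13.1 CPM over all cells. It was at 18.2, 10.1, 7.50 and 15.25 CPM in the MS4A1 gate and at 8.705, 4.71, 4.02 and 6.38 CPM in the CD4 gate. In the CD8B gate it was at 7.76, 7.775, 8.73 and 13.3 CPM. The WC1, NCR1 and CD14 gates had 1 to 22 KLF2 UMIs a library. Of the 20 measured genes of sphingosine phosphate egress and homing none was 2-fold higher or lower at any time (median log2 ratio -0.08, 0.05 and 0.16). CCR7, the lymph node homing receptor, was at 255 CPM without LPS and 398 CPM at 2 h, the oxysterol receptor GPR183 at 127 and 164 CPM, and CXCR4 at 505 and 636 CPM. SGPL1, the lyase that degrades sphingosine 1-phosphate, was at 9.64 and 6.56 CPM.

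Most other lectin-like genes of the NK gene complex were not higher after LPS. With the known binding partners of CD69 they made a list of 16 measured genes, CD69 itself not counted, of which 1 was higher and 4 were lower at 2 h, none and 4 at 4 h, and none and 4 at 8 h (median log2 ratio -0.35, -0.39 and -0.25). The higher one was OLR1, a receptor for oxidised lipoprotein, with 0.753, 5.41 and 0.896 CPM without LPS, at 2 h and at 4 h and only 3 UMIs at 8 h, so that it too had its highest value at 2 h. The 4 lower at 2 h were CLEC12A, LGALS3, S100A8 and S100A9. CLEC12A, an inhibitory myeloid lectin, was at 30.2, 4.68, 1.49 and 3.24 CPM. S100A9, a calcium-binding protein of myeloid cells that with S100A8 binds CD69, was at 1099, 410.0, 224 and 511 CPM. These are sums over all cells, of which the CD14 gate was 11.6%, 4.44%, 2.44% and 6.77%. Within the CD14 gate S100A9 was at 4071 CPM without LPS, 4295 CPM at 4 h and 5049 CPM at 8 h. At 2 h it was not above the 3412 CPM of S100A8. In receptor-positive cells S100A9 was at 9353, 3427, 2237 and 7846 CPM. The part of cell composition in the lower sums was not tested. MYL9, a myosin light chain and ligand of CD69, and KLRK1, which encodes NKG2D, had log2 ratios of -0.23 and -0.25 at 2 h. Among the 6 genes on each side of CD69 in the RefSeq gene order, 4 were in the scRNA-seq table under the same symbol. KLRF1, CLECL1 and KLRB1 were at 0.831, 0.597 and 5.04 CPM without LPS and at 0.982, 0.439 and 3.89 CPM at 2 h, and OVOS2 had no UMI in any library.

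Interferon-stimulated genes had another course. Of 24 measured, 7 were higher at 2 h, 23 at 4 h and 2 at 8 h, none was lower, and the median log2 ratio was 0.61, 2.42 and 0.67. ISG15, the ubiquitin-like interferon response gene, was at 163, 1202, 2934 and 339 CPM. IFIT2 and IFIT1, which bind foreign RNA, were at 6.80 and 7.32 CPM without LPS, 34.6 and 28.5 CPM at 2 h and 78.2 and 82.0 CPM at 4 h. Their peak was at 4 h, after that of CD69. IFI6, another interferon-induced gene, was at 73.2, 75.8, 185 and 94.7 CPM.

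**Figure D4:**
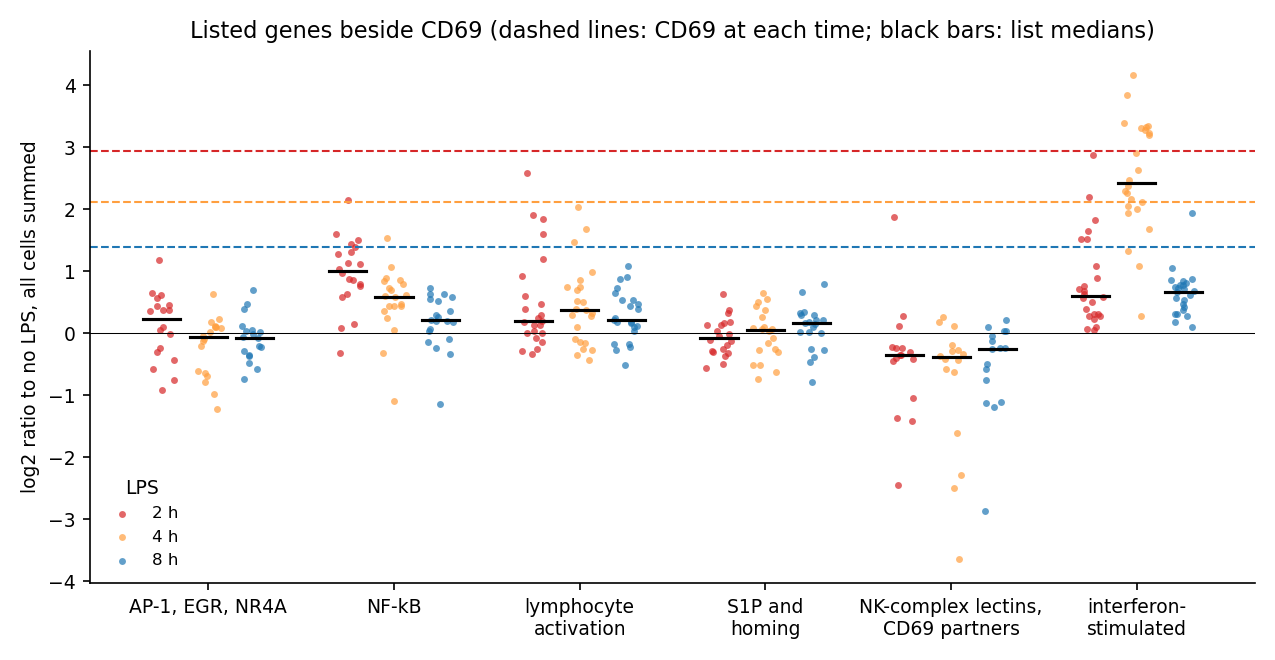
Log2 ratio to no LPS over all cells (y axis) for each measured gene of the 6 lists, with 1 point for each gene and time, black bars for list medians and dashed lines for CD69 (2.94, 2.12 and 1.39 in order of time). At 2 h no point of any list lies above the line of CD69; at 4 h only interferon-stimulated genes do.

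The genes whose pattern over the 24 sums of gate and library was most like that of CD69, by Pearson's r of log2(CPM + 1) among 9283 genes, were SLAMF1 (r = 0.82), NFKBIZ (0.79), PIM1 (0.76), PELI1 (0.76), TNF (0.74), VMP1 (0.74), POLB (0.73), KTN1 (0.73), SGK1 (0.73) and NCOA4 (0.72). The sums of 1 library share that library and those of 1 gate share its marker, so r is a description. NFKBIZ, an inducible IκB protein of the nucleus, was at 34.8 and 61.7 CPM in the CD4 gate without LPS and at 2 h, 26.2 and 136 CPM in the MS4A1 gate and 63.6 and 204 CPM in the CD14 gate. The kinase gene PIM1 was at 69.3 and 188 CPM in the CD4 gate. SGK1, a kinase induced by serum and glucocorticoids, was at 12.6 and 194 CPM in the NCR1 gate, and TNF at 20.1 and 43.7 CPM.

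Cells with and without CD69 were compared within a gate and library, each cell thinned to 1000 UMIs, where both sides had at least 50 cells. Receptor-positive cells were left out. In the CD4 gate at 2 h, 73 CD69-positive cells had 2.57 times the JUNB level of 1393 negative ones (1.99 to 3.28), 3.08 times that of SOD2 (1.95 to 4.68), 2.43 times that of ISG15 (1.90 to 3.06) and 2.07 times that of BCL2A1, a survival gene of the BCL2 family (1.52 to 2.76). TNFAIP3 was 2.03-fold (1.11 to 3.46) and NFKBIA 1.68-fold (1.36 to 2.05) higher. Their median full depth was alike, with 4364 and 4376 UMIs. At 4 h in the same gate 53 positive cells had more IL2RA (2.91-fold, 1.77 to 4.56), CTLA4, an inhibitory receptor (3.68-fold, 1.74 to 7.07), and TNFRSF18 (4.02-fold, 2.64 to 5.93) than 1064 negative ones. At that time 10 of 18 measured NF-kB genes were at least 2-fold higher in the positive cells and 1 was at least 2-fold lower, where 9.54% of all 4929 measured genes were higher and 18.8% lower. At 2 h 6 of 18 were higher and none was lower, beside 7.05% and 18.1% of 5518 genes. Of 16 measured interferon-stimulated genes 3 were higher and 4 lower at 2 h (median log2 ratio 0.07), so ISG15 does not stand for its list.

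In the MS4A1 gate at 2 h, 126 positive and 2395 negative receptor-negative cells were compared. IER3, an immediate early gene of cell survival, was 4.84-fold higher in the positive cells (3.36 to 6.83), SOD2 4.64-fold (3.36 to 6.31), RSAD2, which encodes the antiviral protein viperin, 7.69-fold (4.11 to 13.8) and NFKBIA 2.57-fold (2.25 to 2.92). CD83 was 1.34-fold higher (1.15 to 1.55). CD27, a receptor of the TNF receptor family, was 3.48-fold higher (1.77 to 6.34). The positive cells had a median of 3554 UMIs and the negative ones 4432, and the part of depth or of other cells in the same droplet in these differences was not tested. Of the AP-1, EGR and NR4A list 3 of 11 measured genes were at least 2-fold higher in the positive B cell-gated cells and 1 was lower, beside 4.82% and 18.8% of all 6840 measured genes. In the CD4 gate at 2 h 4 of 9 were higher, beside the 7.05% given above. At 4 h 1 of 8 was higher in the CD4 gate, beside 9.54% of all measured genes. In the MS4A1 gate at 4 h, with 63 positive and 1896 negative cells, 1 of 11 was higher, beside 8.31%. With so few positive cells many of these genes had few UMIs, and no count of a list was tested. Among the receptor-positive cells at 2 h, 283 CD69-positive cells had 17.8 times the level of the adhesion molecule ICAM1 (4.87 to 148) of 54 negative ones. They had 11.4 times the level of EGR1 (3.86 to 56.0) and 0.330 times that of S100A8 (0.273 to 0.400). Of all 1315 genes measured there, 19.8% were at least 2-fold higher and 33.8% at least 2-fold lower. Their median depth was 1786 against 9135 UMIs, and whether both sides were 1 kind of cell was not tested.

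The scATAC-seq tables, which count transposase cuts assigned to each gene in each nucleus, gave CD69 a level of 25.6 (16.6 to 37.9), 83.7 (80.5 to 87.1), 75.3 (72.1 to 78.7) and 42.6 (39.0 to 46.5) CPM, here counts scaled to a total of 1000000. A count was found in 0.481%, 21.9%, 21.4% and 7.71% of the nuclei. The library without LPS had only 25 CD69 counts, with a median of 213 counts per nucleus over all genes against 5171, 5205 and 2250 in the others, so its share of nuclei is not comparable with theirs. By the level, CD69 was 3.27-fold higher at 2 h than without LPS (2.21 to 5.06), 2.94-fold at 4 h (1.98 to 4.55) and 1.66-fold at 8 h (1.11 to 2.59), ranks 506, 505 and 778 of 11374, 11317 and 11000 genes. At least 2-fold higher were 9.22%, 8.23% and 4.26% of these genes, so a ratio of this size was not rare in this assay. Of the nuclei with a CD69 count 66.7% to 92.4% had an even one, so cuts came largely in pairs, and the intervals above, which take each cut as independent, are too narrow. With counts taken in pairs, which was chosen after seeing the data, the ratios were 2.90-fold (1.75 to 5.19), 2.62-fold (1.58 to 4.70) and 1.56-fold (0.928 to 2.82), so that the difference at 8 h was then within counting error. Between the deeper libraries the level at 4 h was 0.900 times that at 2 h (0.848 to 0.954) and that at 8 h 0.566 times that at 4 h (0.513 to 0.624), with intervals of 0.834 to 0.983 and 0.518 to 0.677 for counts in pairs. From 2 h to 4 h the scATAC-seq level thus changed less than the RNA level, which was 0.565-fold (0.545 to 0.586), and both were lower at 8 h.

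Gates on scATAC-seq counts separated the classes less well. At 2 h CD69 was at 92.6 CPM in 325 nuclei gated on CD4, 82.0 in 664 gated on MS4A1, 58.7 in 169 gated on WC1 and 59.0 in 118 gated on CD14. At 4 h the same gates had 99.1, 70.0, 64.7 and 67.1, and at 8 h CD4 had 60.3 and MS4A1 40.7. The T and NK cell gene CD247 stood at 399 CPM in CD4-gated nuclei, 290 in MS4A1-gated and 426 in CD14-gated nuclei at 2 h, so the CD14 gate did not set monocytes apart here. Of CSF3R, CXCR1 and CXCR2, 2 were listed at 2 h and 1 at 4 h. The 125 nuclei with a count of them at 2 h had 96.6 CPM of CD69 beside 83.7 CPM in all nuclei, and the 52 at 4 h had 59.0 beside 75.3 CPM. The RNA level at 2 h was 3144 CPM in receptor-positive cells and 190.1 CPM in all cells. NCR1, CD8B and CD14 had too few counts or were not listed in some libraries, and no value was computed there.

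**Figure D5:**
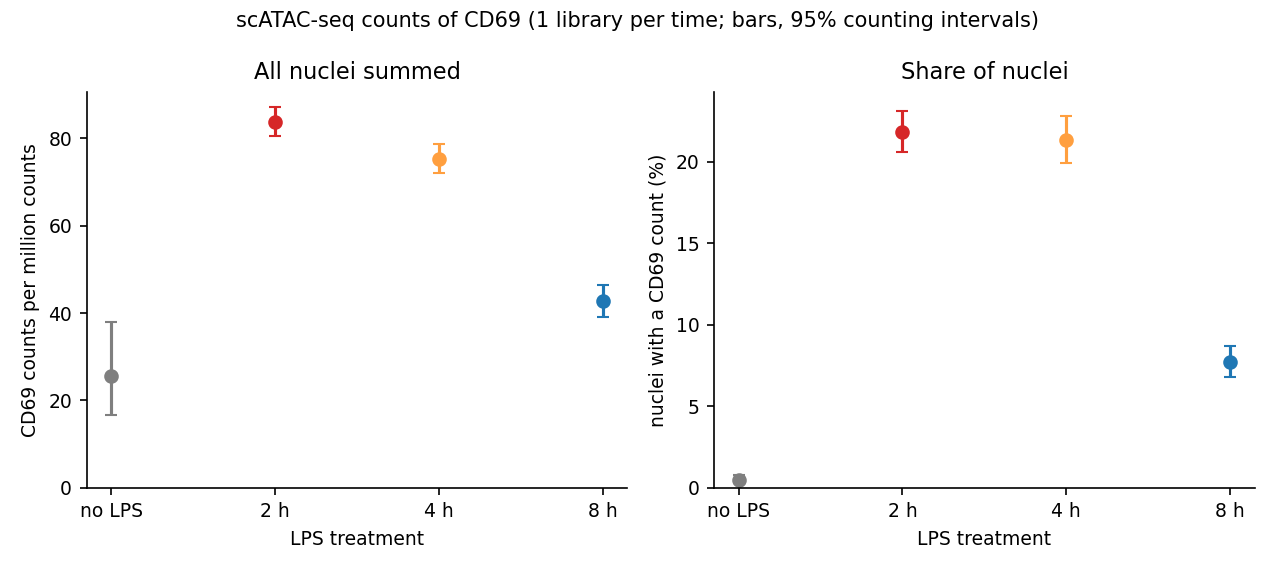
CD69 scATAC-seq counts in CPM over all nuclei (left) and the percentage of nuclei with a CD69 count (right), with 1 point for each library and bars for the 95% counting interval. The level is 83.7 at 2 h and 75.3 at 4 h, and the share without LPS (0.481%) comes from a far shallower library.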

How the data were processed

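For scRNA-seq the authors ran Cell Ranger, with ARS-UCD1.2 (bosTau9) as the cattle genome, and deposited tables of unnormalised UMI counts (genes by barcodes). They also deposited scATAC-seq counts per gene and barcode, and the rule for assigning cuts to genes is not given in the sources used here. Counts were used without further correction. Kept cells held 16657841 to 47875879 UMIs in a library, and scATAC-seq libraries 975012 to 30250143 counts. UMIs were summed per library and gate and scaled to CPM, and log2 ratios used a pseudocount of 1 CPM. Intervals are exact Poisson (levels), conditional exact binomial (ratios of 2 sums) or Clopper-Pearson (shares) at 95%, from SciPy 1.17.1. A ratio was computed for genes with at least 20 UMIs over the libraries compared. With 1 library per treatment p-values were not computed, and effects of library and treatment cannot be told apart. Genes named are CD69, the gate markers, S1PR1, KLF2, the 3 highest and 2 lowest members of each of 6 lists at 2 h among those with at least 200 UMIs, the 10 genes most like CD69 and leading markers of other cells. Others (IL1RN, CXCL8, GPR84, MEFV, CXCR1, IL2RA, NFKBIA and those named for cells with and without CD69) were chosen after their values were seen. CD69, the gates and the lists were chosen with earlier results of these data known. Gene neighbours come from the RefSeq order on ARS-UCD2.0, without coordinates. Alternative scalings were TMM factors (edgeR 4.0.16) and median-of-ratios size factors (DESeq2 1.42.0), used for scaling only. The ratio, interval, likeness and thinning steps were tested on simulated data. Other alternatives changed the cell limits, gates, pseudocount, weighting of cells and gene minimum, or left out shared barcodes and cells with a CSF3R, CXCR1 or CXCR2 UMI.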

Additional observations from a re-analysis of the deposited data

How the results depend on the processing

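CD69 stayed above no LPS at 2 h in all cells and in every gate under each alternative tried. Over all cells the log2 ratios at 2 h, 4 h and 8 h (2.94, 2.12 and 1.39) were 2.23, 1.46 and 1.11 without receptor-positive cells, 2.56, 1.79 and 1.13 with a pseudocount of 10 CPM, 2.85, 1.81 and 0.99 with cells weighted equally, and 3.20, 2.75 and 1.59 with the classes' shares of UMIs held at those without LPS. With every barcode the values at 2 h and 4 h were 3.10 and 2.35, and with no upper limit on genes that at 4 h was 2.35. At 8 h it was 1.65 without cells under 0.333 of the library's median UMI count, 1.28 with TMM and 1.27 with DESeq2 size factors, which lowered all ratios at 8 h by 0.11 on the log2 scale. In gates at 2 h, leaving out receptor-positive cells gave 0.90 in place of 1.38 (CD8B), 2.10 in place of 2.58 (MS4A1) and 4.31 in place of 5.38 (CD14). A pseudocount of 10 CPM gave 1.15 (CD4), 1.87 (WC1), 2.05 (MS4A1) and 4.61 (CD14), and a gate of at least 2 UMIs gave 2.04 (CD8B). With CSF1R as a second marker the CD14 gate gave 4.29 at 2 h and -0.20 in place of 3.35 at 8 h, the latter on 2 CD69 UMIs. Of 216 alternative ratios in gates, 185 lay within the counting interval of the reported one and 1 had the other sign. Of 96 alternative shares 52 lay outside it, and all 15 scATAC-seq ratios lay within it, those for counts in pairs included. With TMM 2 AP-1, EGR and NR4A genes were 2-fold lower at 4 h in place of 1, and at 8 h 0 lymphocyte activation genes in place of 1 and 1 interferon-stimulated gene in place of 2 were 2-fold higher. By Spearman's rho 5 of the 10 most like genes were shared. Leaving out receptor-positive cells, adding second markers and taking scATAC-seq counts in pairs were chosen after seeing the data. The cause of each change was not tested. No paired analysis was possible because each treatment has 1 library per assay. Depth limits the WC1 and NCR1 gates (4 and 9 CD69 UMIs without LPS) and the scATAC-seq library without LPS (25 counts).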
